A study of Rattus norvegicus with 8 samples.

Results

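The genes described are the cytochrome P450 enzymes of families 1 to 4, the UDP-glucuronosyltransferases (Ugt), the sulfotransferases (Sult) and the glutathione transferases (cytosolic Gst and membrane-bound Mgst) in 8 rat kidney allografts. Members were chosen by gene name: probes named Cyp followed by 1, 2, 3 or 4 and a letter, or starting with Ugt1, Ugt2, Sult, one of the Gst class names a, m, p, t, o and k, or Mgst. A probe also had to be well above background on each of the 2 arrays of some group. The array held 113 such probes for 88 genes among 41012 probes, and 71 of them, for 57 genes, met the rule. By family these were 22 probes of the Cyp1 to Cyp3 families, 7 of Cyp4, 9 of Ugt, 11 of Sult, 18 of the cytosolic Gst and 4 of Mgst. Of the 71, 69 probes for 55 genes entered the tests, and 59 of the 71 were well above background on all 8 arrays.

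All kidneys came from male Dark Agouti donors and were placed into MHC-incompatible male Lewis recipients whose own kidneys had both been removed. Both strains weighed 120 to 250 g, the organs were flushed with UW solution and held for 25 min at 4 °C, and each graft was taken 24 h after surgery. There were 4 groups of 2 grafts: high-difference grafts with 500 µg of a neutralising anti-IL6 receptor antibody (anti-IL6R grafts), high-difference grafts with 15 mg/kg of the glucocorticoid prednisolone (prednisolone grafts), untreated high-difference grafts, whose donors weighed 20 to 50% less than the recipient, and untreated low-difference grafts, with a gap of 0 to 20%. Both agents were given once, intravenously, straight after surgery, and the series calls the 2 grafts of a group biological replicates. There was no kidney that had not been transplanted and no isograft among the arrays used here, so every level given is that of an allograft on its first day.

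P450 enzymes oxidise drugs, steroids and fatty acids, with electrons supplied by a reductase. The conjugating enzymes then attach glucuronic acid, sulfate or glutathione to such products, and membrane pumps carry the conjugates out of the cell. In the kidney much of this work is done by the proximal tubule, and in the rat kidney P450 enzymes also turn arachidonic acid into epoxides and 20-HETE, lipids that act on vessels and on sodium transport.

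Levels are log2 intensities relative to the 75th percentile of the same array, so a level of 0 is a probe at that percentile, and differences between groups are in log2 units. Levels are not set against each other between probes, since probes differ in brightness. Tests were limma's moderated test over all 28686 probes tested, with Benjamini-Hochberg adjustment over all of them and a threshold of 0.05. With 2 arrays a group, no probe of the array passed in any of the 6 comparisons (0 of 28686 in each, 0%). The unadjusted p under 0.05 is therefore given as a second, weaker count, with its share over all probes. The untreated groups shared 1 slide and scan and the treated groups another, so a difference between a treated and an untreated group cannot be told apart from one between slides. RNA of the whole organ was measured, and fewer cells of a type and less RNA per cell cannot be told apart.

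The prednisolone arrays stood apart for these enzymes. The median absolute gap between the 2 arrays of a group over the 69 member probes was 0.32 for anti-IL6R, 1.16 for prednisolone, 0.60 for high-difference and 0.45 for low-difference grafts, against 0.21, 0.43, 0.28 and 0.25 over all probes in the same order. In the prednisolone group 57 of the 69 members were lower on the first array, and 36 differed by more than 1 log2 unit. The member medians of comparisons that involve this group are therefore given with and without each of its arrays. Other results for it use both arrays unless stated.

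**Figure D1:**
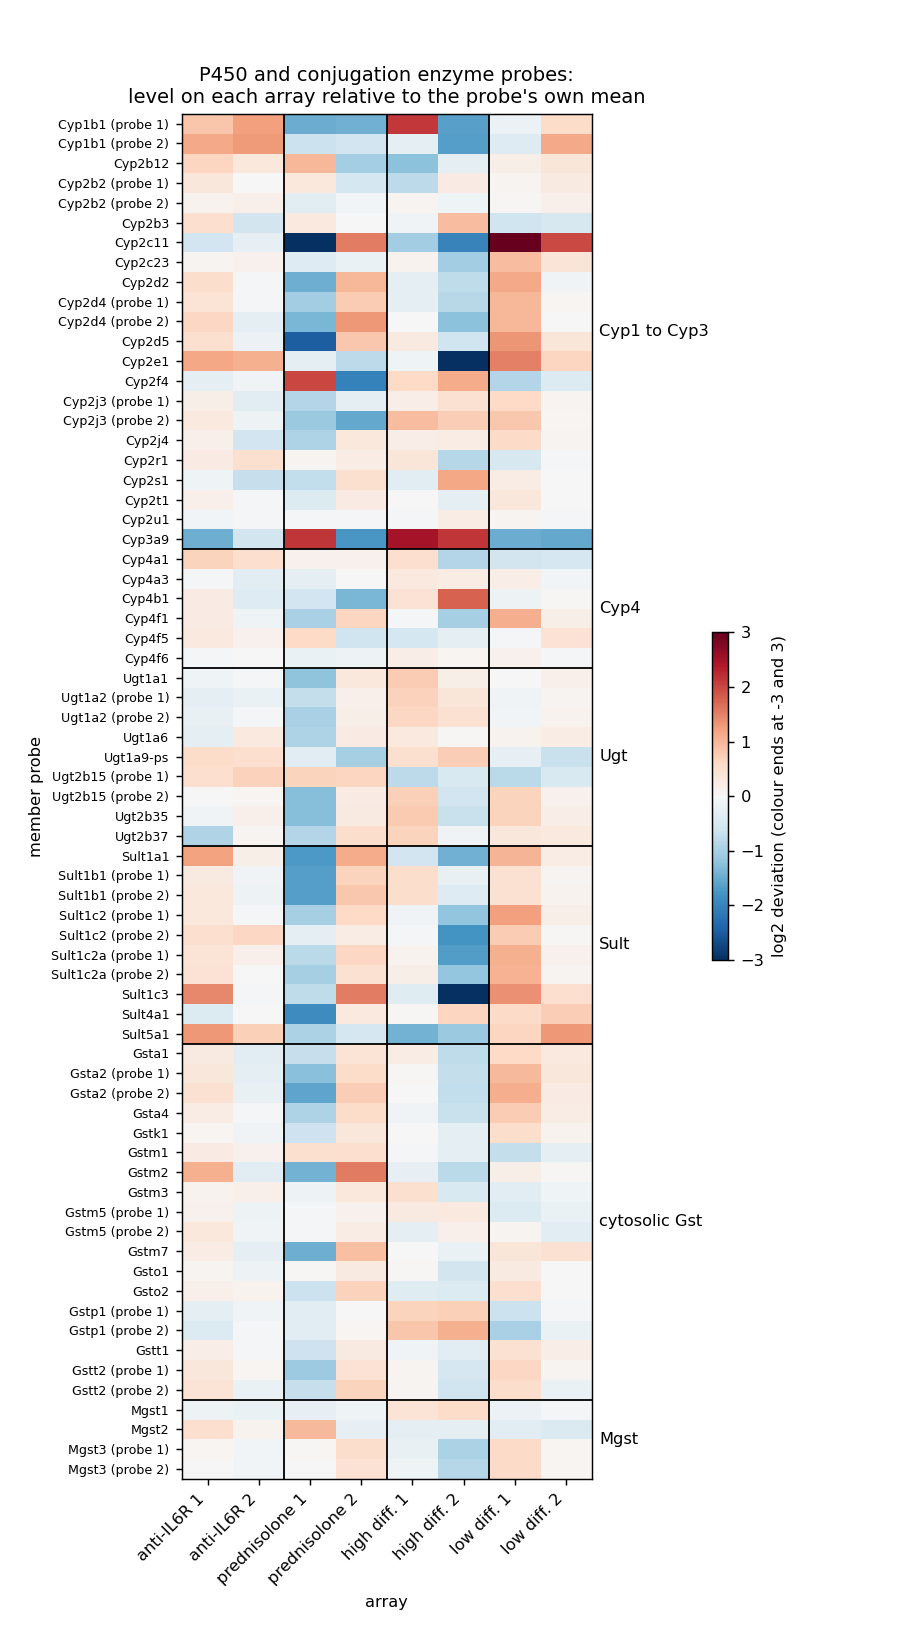
Log2 deviation of each of the 69 member probes (rows, by family) from its own mean over the 8 arrays (columns, anti-IL6R, prednisolone, high-difference and low-difference grafts from left to right). The first prednisolone array is blue for most rows, and the second high-difference array is blue for most Sult rows.

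Some promoters are shown here because several enzymes of these families are known targets of NRF2, a stress-activated factor that binds the antioxidant response element. RefSeq promoter windows of assembly GRCr8, which run from 250 bases before to 50 bases after the annotated start, were available for 51 of the 57 member genes. The element's core, TGACNNNGC on either strand, lay in the windows of 7 of these genes (13.7%), against 12.1% of all 33469 windows. The first share counts genes and the second counts windows, and they lay near each other. The genes were Gstp1, Gsta1, Gsta2, Gstm5, Gstm7, Cyp2s1 and Cyp4b1. The core of the element bound by the aryl hydrocarbon receptor, GCGTG on either strand, lay in the windows of 15 genes (29.4%), against 29.7% of all windows. A match is a string of letters and says nothing of binding. The windows of Gstp1 (chr1:210769656-210769955) and Gsta2 (chr8:88077043-88077342) are printed whole because both genes hold the core and their probes lay on opposite sides of 0 in high-difference against low-difference grafts. For the others only the core with 15 bases on each side, or up to the window's end, is given. All are on the gene's strand, the minus strand of the assembly except for Gstm5, 5′ to 3′, with the core in capitals. In Gsta2 it lies on the opposite strand, so the capitals show its reverse complement.
Gstp1: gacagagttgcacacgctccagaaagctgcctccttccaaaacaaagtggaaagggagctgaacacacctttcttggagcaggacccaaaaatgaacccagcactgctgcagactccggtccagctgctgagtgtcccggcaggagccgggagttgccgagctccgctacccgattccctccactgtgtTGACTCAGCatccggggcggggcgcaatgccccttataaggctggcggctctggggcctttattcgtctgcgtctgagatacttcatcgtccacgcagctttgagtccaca
Gsta2: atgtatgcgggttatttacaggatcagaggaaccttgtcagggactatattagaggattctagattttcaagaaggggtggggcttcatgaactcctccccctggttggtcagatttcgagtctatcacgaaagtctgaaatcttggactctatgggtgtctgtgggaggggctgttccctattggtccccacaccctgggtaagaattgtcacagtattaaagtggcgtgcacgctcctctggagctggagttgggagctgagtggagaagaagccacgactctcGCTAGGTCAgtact
Gsta1 (chr9:31216483-31216517): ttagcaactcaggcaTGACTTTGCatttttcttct
Gstm5, upstream copy (chr2:198219641-198219679): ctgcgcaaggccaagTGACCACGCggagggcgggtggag
Gstm5, downstream copy (chr2:198219701-198219739): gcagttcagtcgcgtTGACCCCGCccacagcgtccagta
Gstm7 (chr2:198260310-198260348): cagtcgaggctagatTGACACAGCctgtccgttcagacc
Cyp2s1 (chr1:90453246-90453284): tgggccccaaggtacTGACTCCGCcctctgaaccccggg
Cyp4b1 (chr5:134393115-134393153): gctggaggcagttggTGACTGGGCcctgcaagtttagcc

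The first comparison asks how the enzymes differed between high-difference and low-difference grafts. The members lay lower in high-difference grafts more often than probes in general: 43 of 69 differences were below 0 (62.3%), against 44.2% of all probes, and the median difference was -0.33, against 0.07 over all probes. The 2 arrays of each group did not overlap for 42 members (60.9%, background 56.2%), of which 28 were lower (40.6%, background 23.0%) and 14 higher in high-difference grafts (20.3%, background 33.2%). None passed the adjusted threshold (0 of 69, background 0%). At an unadjusted p under 0.05 there were 12 members (17.4%, background 14.5%), 6 higher (background 8.11%) and 6 lower (background 6.37%), shares near the background. The members were chosen with earlier results of these data known, so these counts describe the list and test nothing about it. Without the first high-difference array the median was -0.60, and without the second -0.16. Over all 111 probes that the names pick and that were not flagged, dim ones included, it was 0.09, against 0.17 over all 40247 such probes of the array.

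Among the members, the Sult family had the median farthest from 0. Sulfotransferases transfer a sulfate group to phenols, steroids and amines, and all 10 Sult probes tested, for 7 genes, had a difference below 0 (median -1.33; background for below 0, 44.2%), 6 of them without overlap (background for lower, 23.0%). The remaining Sult member, Sult2b1, read -0.38 and -0.45 in high-difference grafts. It was flagged as an outlier on both low-difference arrays and was not tested. With dim Sult probes included the median was -0.26, and those of Ugt and of Cyp1 to Cyp3 were 0.51 and 0.34. Sult5a1 gave -4.38 and -4.09 in high-difference grafts, against -2.33 and -1.68 in low-difference grafts. The arrays of the groups lay well apart, and the difference of -2.23 ± 0.33 (SE, n = 2 a group) had the smallest adjusted p of all members (limma, 0.229), still above the threshold. Sult1a1, the phenol sulfotransferase, measured 0.80 and -0.06 in high-difference grafts, against 2.41 and 1.60 in low-difference grafts, which differed by -1.63 ± 0.92 (adjusted p = 0.42). Again the groups did not overlap.

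The Sult1c2 group, sulfotransferases abundant in rat kidney, was lower chiefly on the second high-difference array. The Sult1c2a probe A_44_P141963 read 6.38 and 4.60 in high-difference grafts, against 7.34 and 6.39 in low-difference grafts, so the first high-difference array lay just under the second low-difference array. The differences of the 2 Sult1c2 probes were -1.33 and -1.32 and those of the 2 Sult1c2a probes -1.38 and -1.05. These probes may bind one another's transcripts, so they may not be separate readings. Their specificity was not tested. Sult1c3 had -3.99 and -7.31 in high-difference grafts, against -2.26 and -3.12 in low-difference grafts, and on the second high-difference array it was not well above background. For Sult1b1, which sulfates thyroid hormones and phenols, both probes lay near 0 (-0.12 and -0.22). Without the second high-difference array the family median was -0.55 with 8 of 10 probes below 0, and without the first it was -1.97 with 10 of 10 below 0.

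Among the Cyp1 to Cyp3 families the extremes of all members were found, in both directions. Cyp3a9, a steroid and drug oxidase of the Cyp3a subfamily, had levels of 0.17 and -0.19 in high-difference grafts, against -3.81 and -3.86 in low-difference grafts. The arrays of each group lay close together and the groups far apart. The difference was 3.83 ± 1.14 (SE), a 14.2-fold higher signal, with an adjusted p of 0.312. This standard error rests mainly on the prednisolone arrays, which enter the shared estimate of spread and lay at -0.17 and -4.08. With either prednisolone array left out, the same difference had a standard error of 0.33 and passed the threshold (limma, adjusted p = 0.0496).

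Cyp2c11 went the other way. It is the male-specific P450 of rat liver, a testosterone hydroxylase and arachidonic acid epoxygenase, and measured -2.30 and -3.26 in high-difference grafts, against 2.77 and 0.71 in low-difference grafts. Every low-difference array was above both high-difference arrays, and the difference of -4.52 ± 1.60 (adjusted p = 0.326) was the lowest of all members. Cyp2e1, which oxidises ethanol, acetone and fatty acids, gave 2.06 and -1.003 in high-difference grafts, against 3.69 and 2.83 in low-difference grafts. Its difference of -2.73 ± 0.91 (adjusted p = 0.318) came mostly from the second high-difference array, without which it was -1.20.

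Cyp2c23, the main arachidonic acid epoxygenase of rat kidney, had levels of 4.85 and 3.71 in high-difference grafts, against 5.68 and 5.14 in low-difference grafts. The groups did not overlap, and the difference was -1.13 ± 0.39 (adjusted p = 0.32), or -1.70 without the first and -0.56 without the second high-difference array. In the Cyp2d group, which oxidises many amines, the differences were -1.04 for Cyp2d2, -1.095 and -1.109 for the 2 Cyp2d4 probes and -1.01 for Cyp2d5. These 4 probes may bind one another's transcripts, since family members are alike in sequence, and probe specificity was not tested. Beside Cyp3a9, the members of these families that were higher without overlap were Cyp2f4, a lung-type P450 with a difference of 1.496, and Cyp2b3 with 0.95. Of all members 26 lay above 0 (37.7%, background 55.8%). Over the 22 probes of Cyp1 to Cyp3, 8 differences were above 0 and 14 below, with a median of -0.21.

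The fatty acid hydroxylases of the Cyp4 family showed no common direction, with 4 of 6 probes above 0 and a median of 0.14. Cyp4a3, one of the enzymes that make 20-HETE, read 7.67 and 7.61 in high-difference grafts, against 7.58 and 7.31 in low-difference grafts. The difference was 0.20. Cyp4f1 gave 5.82 and 4.88 in high-difference grafts, against 6.98 and 6.05 in low-difference grafts, so both high-difference arrays lay below both low-difference arrays. Cyp4b1, which activates furans and aromatic amines, measured -1.79 and -0.45 in high-difference grafts, against -2.38 and -2.18 in low-difference grafts, again without overlap but in the opposite direction (1.16 ± 0.50, adjusted p = 0.353). Without the second high-difference array its difference was 0.49, and without the first 1.83. Cyp4a8 was left out of the test because 1 spot was flagged as an outlier. Its remaining arrays read 8.65 in the high-difference group and 8.77 and 8.58 in the low-difference group.

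**Figure D2:**
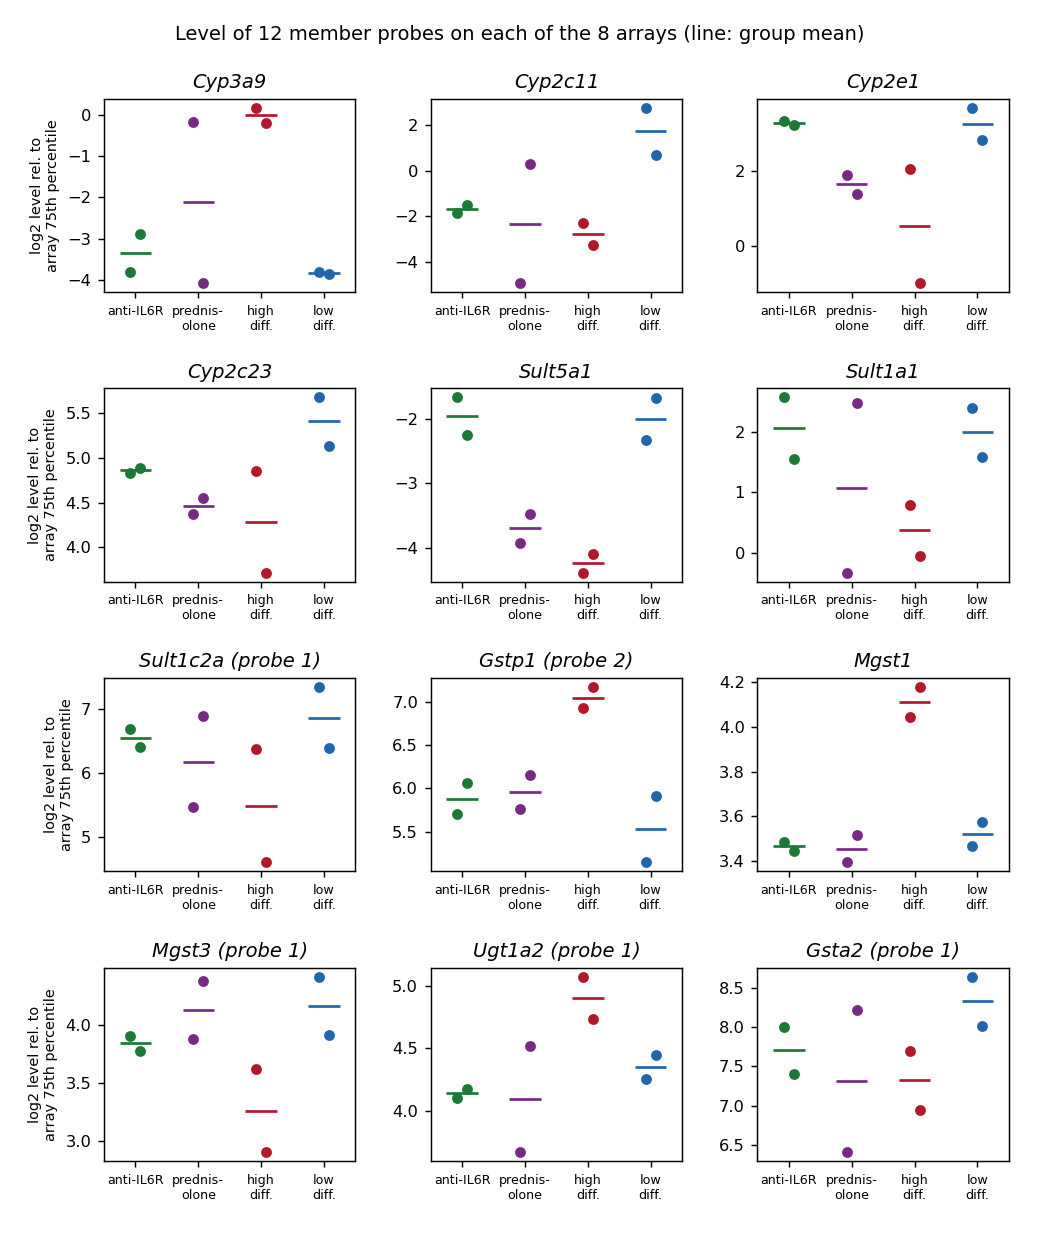
Log2 level, relative to the array's 75th percentile, of 12 member probes on each array (points), with the group mean as a line, for anti-IL6R, prednisolone, high-difference and low-difference grafts from left to right; each panel has its own y axis. Cyp3a9, Gstp1 and Mgst1 are high on both high-difference arrays, Sult5a1 is low on them, and the 2 prednisolone points are far apart for Cyp3a9 and Cyp2c11.

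Glutathione transferases lay on both sides of 0. Of the 18 cytosolic probes, 12 were below 0 and 6 above in high-difference against low-difference grafts (median -0.48). The alpha class, abundant in proximal tubule and known for the reduction of lipid hydroperoxides, was on the low side. Gsta2 probe A_43_P13967 read 7.70 and 6.94 in high-difference grafts, against 8.65 and 8.02 in low-difference grafts, without overlap, a difference of -1.01 ± 0.62 (adjusted p = 0.45). Differences of -0.71 for Gsta1, -0.86 for Gsta4 and -1.04 for the other Gsta2 probe were also without overlap, and none had an unadjusted p under 0.05.

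Gstp1, the pi-class enzyme known as a marker of preneoplastic rat liver, was higher by both of its probes. A_44_P182221 gave 6.93 and 7.18 in high-difference grafts, against 5.14 and 5.92 in low-difference grafts, and A_43_P13342 gave 8.44 and 8.50 in high-difference grafts, against 7.13 and 7.73 in low-difference grafts. All 4 high-difference readings exceeded the low-difference readings of the same probe. The differences were 1.52 ± 0.32 and 1.04 ± 0.26 (SE), or 2.87-fold and 2.06-fold, with adjusted p of 0.301 and 0.312. Gstm5, a mu-class enzyme, had a difference of 0.58 ± 0.19 by one probe (adjusted p = 0.317) and 0.08 by the other. The mu class held both signs, with 0.32 for Gstm1 and 0.23 for Gstm3 but -0.63 for Gstm2 and -0.50 for Gstm7.

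The membrane-bound enzymes were also divided. Mgst1, a glutathione transferase and peroxidase of the endoplasmic reticulum and mitochondria, measured 4.04 and 4.18 in high-difference grafts, against 3.47 and 3.57 in low-difference grafts. The replicate arrays lay close together, and the difference of 0.59 ± 0.17 had an adjusted p of 0.312. Mgst3, which reduces fatty acid hydroperoxides, read 3.62 and 2.90 in high-difference grafts by probe A_42_P522857, against 4.41 and 3.91 in low-difference grafts, and the differences of its 2 probes were -0.90 and -0.81 (adjusted p = 0.327 and 0.338). Both probes were without overlap. Mgst2 differed by 0.10.

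Glucuronidation genes lay on both sides of 0 in high-difference against low-difference grafts, with 6 of 9 probes above 0 and a median of 0.01. Ugt1a2 read 5.07 and 4.73 in high-difference grafts by probe A_44_P402641, against 4.26 and 4.45 in low-difference grafts, without overlap (0.55 ± 0.31, adjusted p = 0.419). Ugt1a1, the bilirubin-conjugating form, differed by 0.38, also without overlap, and Ugt1a6, a form for planar phenols, by 0.01. The Ugt1a forms are made from one locus with shared exons, so a probe may read several of them. The Ugt2b probes, for forms that conjugate steroids, lay between -0.38 and 0.01. Ugt1a9-ps had a difference of 1.08, but in both groups it was not well above background, so no fold is given.

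**Figure D3:**
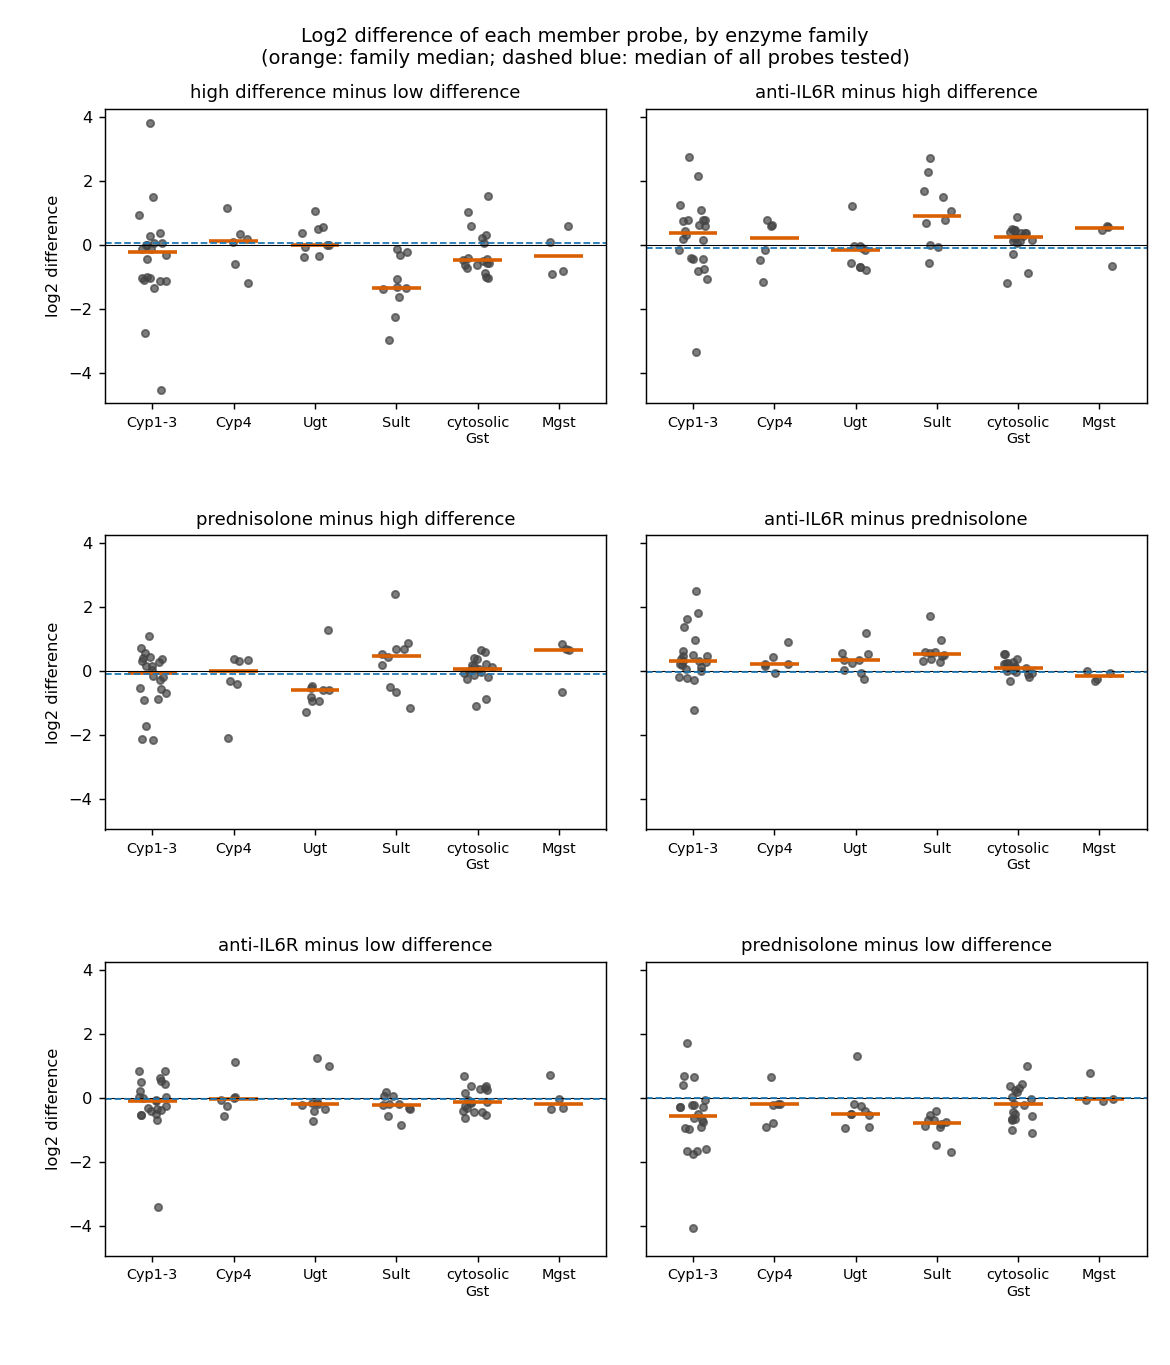
Log2 difference of each member probe (points) by enzyme family in the 6 comparisons, with the family median in orange and the median over all 28686 probes as a dashed blue line. In high-difference minus low-difference grafts all 10 Sult points lie below 0, and in anti-IL6R minus high-difference grafts 8 of 10 lie above 0.

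The second comparison asks how the enzymes differed in anti-IL6R grafts from untreated high-difference grafts. It shares the high-difference arrays with the first, so opposite signs in both are partly built in, and the values are given side by side only. Of the 69 members, 44 were above 0 (63.8%, background 43.4%), with a median of 0.28 against -0.08 over all probes. The arrays did not overlap for 39 members (56.5%, background 59.4%), 23 higher (33.3%, background 23.4%) and 16 lower in anti-IL6R grafts (23.2%, background 36.0%). No member passed (0 of 69, background 0%), and 10 had an unadjusted p under 0.05 (14.5%, background 17.5%), 5 higher (background 7.17%) and 5 lower (background 10.3%). These totals lay near the background. Cyp2b12, Cyp1b1 probe A_44_P191778 and Ugt1a9-ps met the rule only through the anti-IL6R arrays. Their differences of 1.24, 0.79 and -0.08 are in these counts. With dim probes included, the median over the 111 named probes was -0.03, against -0.17 over all such probes. Without the first high-difference array the median was 0.54, and without the second 0.03.

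Sult5a1 again had the smallest adjusted p of the members. It measured -1.67 and -2.26 in anti-IL6R grafts, against -4.38 and -4.09 in high-difference grafts, a difference of 2.28 ± 0.33 (limma, adjusted p = 0.149), and the anti-IL6R levels overlapped those of the low-difference grafts. Over the Sult family 8 of 10 probes were above 0 (median 0.92; background for above 0, 43.4%), and with dim Sult probes included the median was 0.00. Sult1a1 gave 2.58 and 1.55 in anti-IL6R grafts, against the 0.80 and -0.06 of high-difference grafts, and Sult1c2 probe A_44_P788758 gave 1.36 and 1.49 in anti-IL6R grafts, against 0.80 and -0.93 in high-difference grafts. Neither pair of groups overlapped. Without the second high-difference array the Sult median was 0.20, so most of this shift rested on that array.

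Cyp3a9 was lower in anti-IL6R grafts, at -3.80 and -2.88, against 0.17 and -0.19 in high-difference grafts. The difference was -3.33 ± 1.14 (limma, adjusted p = 0.242). With either prednisolone array left out, again 1 and the same fit for this difference, its standard error was 0.33. Gstp1 differed by -1.17 ± 0.32 and -0.88 ± 0.26 in its 2 probes, Mgst1 by -0.65 ± 0.17 and Ugt1a2 by -0.77 ± 0.31, with adjusted p between 0.206 and 0.279. The anti-IL6R arrays of all these probes lay below both high-difference arrays. For Mgst1 they were 3.48 and 3.45, against 4.04 and 4.18 in high-difference grafts.

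Cyp2e1 read 3.34 and 3.24 in anti-IL6R grafts, against 2.06 and -1.003 in high-difference grafts, a difference of 2.76 ± 0.91 (adjusted p = 0.238) that was 1.23 without the second high-difference array. Cyp1b1, an extrahepatic oxidase of oestradiol and polycyclic hydrocarbons, measured -2.19 and -2.06 in anti-IL6R grafts by probe A_44_P251228, against -3.59 and -4.99 in high-difference grafts (2.16 ± 0.60, adjusted p = 0.218). Its other probe, A_44_P191778, was well above background on only 4 arrays. That probe read -5.13 and -4.74 in anti-IL6R grafts, against -3.86 and -7.59 in high-difference grafts, so its groups overlapped. Cyp2c11 stayed low in the treated group, with -1.85 and -1.52 in anti-IL6R grafts, against -2.30 and -3.26 in high-difference grafts, a difference of 1.097 ± 1.60 (adjusted p = 0.736). Cyp2c23 had 4.83 and 4.89 in anti-IL6R grafts, against 4.85 and 3.71 in high-difference grafts, so the groups overlapped.

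One Ugt2b15 probe, A_43_P15965, separated both treated groups from both untreated groups. It read -4.06 and -3.86 in anti-IL6R, -3.88 and -3.91 in prednisolone, -5.35 and -5.01 in high-difference and -5.36 and -5.02 in low-difference grafts. The 4 treated arrays lay above the 4 untreated arrays, and these are also the arrays of the second slide. The differences were 1.22 for anti-IL6R and 1.28 for prednisolone over high-difference grafts and 1.22 and 1.29 over low-difference grafts, with adjusted p of 0.172, 0.297, 0.756 and 0.451. With normexp background correction these differences of Ugt2b15 were 0.17, 0.42, 0.42 and 0.67. The other Ugt2b15 probe, A_44_P247784, gave -0.03 for anti-IL6R over high-difference grafts, so the 2 probes did not follow one another. Gstm1, a mu-class transferase, was likewise higher on the treated arrays, at 2.92 and 2.79 in anti-IL6R, 3.14 and 3.16 in prednisolone, 2.61 and 2.36 in high-difference and 1.94 and 2.39 in low-difference grafts.

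In the third comparison, prednisolone against high-difference grafts, the direction depended on which prednisolone graft was used. With both arrays the member median was 0.05 (all probes -0.08), and 33 of 69 members were below 0 (47.8%, background 57.9%). It was 0.37 without the first and -0.47 without the second prednisolone array. No member passed (0 of 69, background 0%), 12 had an unadjusted p under 0.05 (17.4%, background 11.7%), 3 of them higher (background 4.17%) and 9 lower (background 7.49%), and 20 did not overlap (29.0%, background 38.3%). The members that kept to 1 side on both prednisolone arrays are described first.

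Gstp1 was on the low side on both arrays, at 5.76 and 6.16 in prednisolone grafts by probe A_44_P182221, against 6.93 and 7.18 in high-difference grafts (-1.09 ± 0.32, adjusted p = 0.36). Mgst1 read 3.39 and 3.51 in prednisolone grafts, against 4.04 and 4.18 in high-difference grafts (-0.66 ± 0.17, adjusted p = 0.333). For both genes the anti-IL6R and prednisolone levels overlapped. Mgst3 lay above high-difference grafts by both probes (0.86 and 0.70), and Sult5a1 at -3.92 and -3.47 in prednisolone grafts was between the high-difference and the anti-IL6R levels.

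Cyp4b1 read -2.78 and -3.58 in prednisolone grafts, against -1.79 and -0.45 in high-difference grafts, a difference of -2.07 ± 0.50 (adjusted p = 0.333) that was -2.47 and -1.66 without the first and the second prednisolone array. The 2 prednisolone arrays were the lowest of all 8 for this gene. Cyp2j3, whose product epoxidises arachidonic acid, had a dim probe, A_44_P242949, at -7.02 and -7.45 in prednisolone grafts, where it was not well above background, against -4.99 and -5.18 in high-difference grafts. Its signal was at least 1.38-fold higher in high-difference grafts (adjusted p = 0.283), the fold being set against the dimmest probes well above background. The brighter Cyp2j3 probe gave -2.17 and -1.54 in prednisolone grafts, against -1.09 and -0.82 in high-difference grafts.

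Cyp3a9 and its opposite, Cyp2c11, split between the prednisolone grafts. Cyp3a9 read -0.17 in the first, as high as in high-difference grafts, and -4.08 in the second, as low as in low-difference grafts. Cyp2c11 read -4.94 in the first and 0.27 in the second. The difference of Cyp3a9 from high-difference grafts was -2.12 with both arrays (adjusted p = 0.496), -4.07 without the first (limma, adjusted p = 0.019) and -0.16 without the second. A fit without 1 prednisolone array assumes that the lone one varies like the other groups, and without the first 261 probes of the array passed. Cyp2f4, whose first prednisolone array lay above both high-difference arrays, also passed only once that array was left out, at -2.87 (limma, adjusted p = 0.0279), with 0.06 and -3.97 in prednisolone grafts, against -1.36 and -0.84 in high-difference grafts. On the first prednisolone array Cyp2d5, Gsta2, Sult1a1 and Ugt2b35 read 0.53, 6.41, -0.34 and 3.49, below every other array for each of these probes.

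Set against each other, anti-IL6R and prednisolone grafts differed above 0 in 54 of 69 members (78.3%, background 48.9%), with a median of 0.27 (all probes -0.01). That direction belonged to 1 array: the median was -0.24 without the first prednisolone array, with 49 of 69 below 0, and 0.78 without the second. None passed (0 of 69, background 0%), 4 had an unadjusted p under 0.05 (5.80%, background 3.40%), and 14 did not overlap (20.3%, background 26.3%). Among those, Sult5a1 differed by 1.73 ± 0.33 (adjusted p = 0.951) and Cyp1b1 by 1.82 ± 0.60 with probe A_44_P251228 (adjusted p = 1). Cyp1b1 read -2.19 and -2.06 in anti-IL6R grafts, against -3.99 and -3.92 in prednisolone grafts, 2 tight pairs that lay far apart. The 4 with an unadjusted p under 0.05 were Sult5a1, this Cyp1b1 probe, Cyp2j3 probe A_44_P242949 and Ugt1a9-ps. Ugt1a9-ps, Cyp2b12 and Cyp1b1 probe A_44_P191778 met the rule only through the 2 anti-IL6R arrays. Their differences of 1.19, 0.50 and 2.50 are in the counts above, and their direction is partly built in.

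Against low-difference grafts, anti-IL6R grafts had a member median of -0.16 (all probes -0.03) and 25 of 69 members above 0 (36.2%, background 44.9%). None passed (0 of 69, background 0%), 4 had an unadjusted p under 0.05 (5.80%, background 2.95%), 4 of them higher (background 1.64%) and 0 lower (background 1.31%), and 28 did not overlap (40.6%, background 39.0%). The 4 were Ugt2b15 (A_43_P15965), Gstm1, Cyp4a1 and Ugt1a9-ps. Ugt2b15 and Gstm1 were also higher than low-difference grafts in prednisolone grafts, on the same slide. Ugt1a9-ps is a member only through its 2 anti-IL6R arrays, and its difference changed sign with normexp background correction. Cyp2b12 and Cyp1b1 probe A_44_P191778, with differences of 0.22 and 0.84, also met the rule only through those arrays. Cyp2c11 had the lowest difference, -3.42 ± 1.60 (adjusted p = 1), and Cyp4a1, a fatty acid hydroxylase that responds to PPARα ligands in rat liver, read 2.82 and 2.64 in anti-IL6R grafts, against 1.59 and 1.63 in low-difference grafts (1.12 ± 0.42, adjusted p = 1). Over the Sult family the median was -0.22 and over the Cyp1 to Cyp3 families -0.09. An adjusted p that misses the threshold does not show that these groups were alike.

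Prednisolone grafts lay below low-difference grafts in 55 of 69 members (79.7%, background 53.0%), with a median of -0.50 (all probes -0.02). Without the first prednisolone array the median was 0.06 with 31 of 69 below 0, and without the second it was -0.999 with 53 below 0. None passed (0 of 69, background 0%), 7 had an unadjusted p under 0.05 (10.1%, background 5.81%), and 20 did not overlap (29.0%, background 31.4%). All 10 Sult probes were below 0 (median -0.80), and 5 of 10 remained so without the first array. Sult5a1 with -1.69 and Cyp2c23 with -0.95 were lower on both prednisolone arrays than on either low-difference array.

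The genes that serve these enzymes were read from lists that hold no member. Of 17 genes for redox partners and cofactor supply that were tested, 3 had an unadjusted p under 0.05 in high-difference against low-difference grafts and all 3 were higher (background 8.11% higher and 6.37% lower), although the list's median was -0.20. Nqo1, a quinone reductase, gave -0.08 and -0.42 in high-difference grafts, against -3.03 and -2.11 in low-difference grafts (2.32 ± 0.36, adjusted p = 0.246). It was followed by Ugdh, which makes UDP-glucuronic acid for the Ugt enzymes (0.86), and Slc35b2, which carries the sulfate donor PAPS into the Golgi (0.49). Papss1, which makes that donor, differed by -0.48, and the P450 reductase Por by -0.07. In the same list Gclc differed by -0.60, Gclm by 0.12, Gss by -0.31 and Gsr by -0.30. In anti-IL6R against high-difference grafts Nqo1 and Ugdh had differences of -1.62 and -1.02, and in prednisolone against high-difference grafts -1.84 and -0.95.

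Several export pumps and uptake carriers lay on opposite sides of 0. Of 14 transporters tested, 4 were higher and 2 lower in high-difference than in low-difference grafts at an unadjusted p under 0.05 (background 8.11% higher and 6.37% lower). The higher ones were all efflux pumps. Abcc2, which exports glucuronide and glutathione conjugates, read 4.33 and 4.97 in high-difference grafts, against 1.95 and 2.35 in low-difference grafts (2.50 ± 0.88, adjusted p = 0.323). Abcb1b differed by 1.63, Abcc3 by 0.94 and Abcb1a by 0.65, each without overlap. The lower ones were Slc22a6, the organic anion uptake carrier of the proximal tubule, with -2.09, and Slc47a1, which secretes organic cations, with -1.47. Abcc2 read 1.99 and 2.75 in anti-IL6R and 4.15 and 1.25 in prednisolone grafts, so its prednisolone arrays split as those of Cyp3a9 did.

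Of 13 receptors and transcription factors tested, Cebpb was higher in high-difference grafts (1.20 ± 0.31, adjusted p = 0.312) and the bile acid receptor Nr1h4 lower (-1.03 ± 0.30, adjusted p = 0.312). Nr1i2, the pregnane X receptor that controls Cyp3a genes, differed by 0.29, Hnf4a by -0.92 and Nfe2l2, which encodes NRF2, by -0.20. Ahr, Ahrr and Nr1i3 were not tested. Of 6 other conjugating enzymes Glyat, the glycine conjugase, had the smallest p, with a difference of -1.37 ± 0.42 (adjusted p = 0.312).

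**Figure D4:**
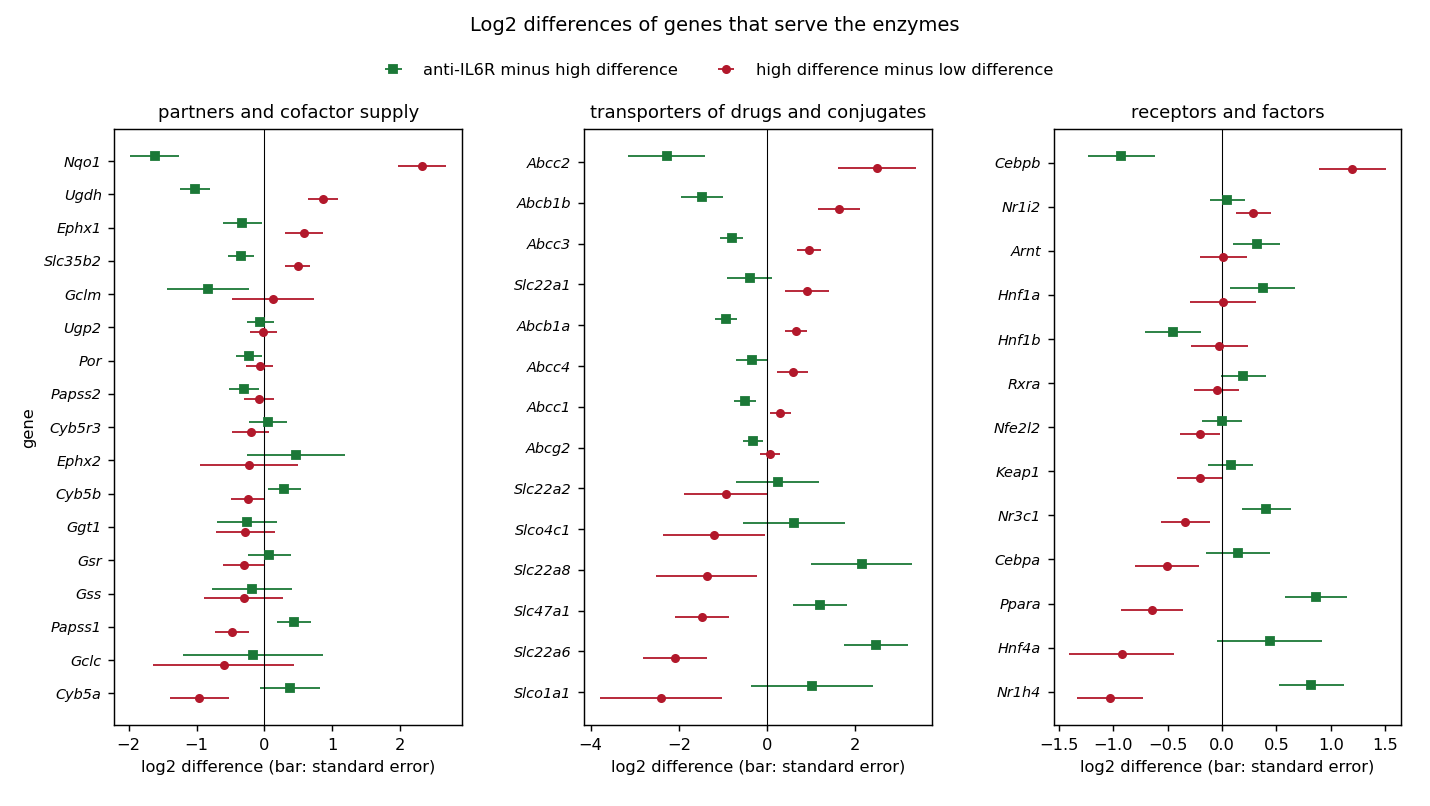
Log2 difference with its standard error for genes that supply partners and cofactors, transport conjugates or regulate the enzymes, in anti-IL6R minus high-difference grafts (green squares) and high-difference minus low-difference grafts (red circles), which share the high-difference arrays. Nqo1, Abcc2 and Cebpb lie right of 0 in red and left of 0 in green.

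Cell type markers also varied across the arrays, some lists with the enzymes and some not. The mean deviation of 13 proximal tubule markers, all well above background on all 8 arrays, was 0.52 and 0.69 on the anti-IL6R, -0.28 and -0.41 on the prednisolone, 0.08 and -1.35 on the high-difference and 0.52 and 0.24 on the low-difference arrays. On the prednisolone arrays these markers split both ways. Slc5a2 read 7.22 on the first and 2.46 on the second, and Slc4a4 2.93 and -0.44. In the same order Pck1 read 2.20 and 5.72 and Aqp1 4.20 and 7.06. The second high-difference array was lowest for the proximal tubule markers and also for the Sult family, at a median deviation of -1.17. It was lowest too for loop of Henle and distal tubule (-1.61), collecting duct, podocyte (-0.57), endothelial, T and NK cell and macrophage lists. This low was therefore not particular to the proximal tubule. The loop list was at -0.66 on the first high-difference array and at 1.56 and 0.41 on the low-difference arrays. Markers of loop of Henle and distal tubule were at -1.26 on the first and 1.21 on the second prednisolone array, and the members' medians there were -0.69 and 0.26. Of the tubular injury markers 5 of 6 were tested, with mean deviations of -0.43 and 0.09 in anti-IL6R, 0.59 and -1.51 in prednisolone, 0.95 and 1.49 in high-difference and -0.82 and -0.36 in low-difference grafts. Between the last 2 groups 4 differences were above 0, 3 without overlap, and that of Vim was below 0. Krt20, well above background on 5 arrays, had the widest gap, with -0.13 and -0.76 in high-difference and -5.68 and -6.31 in low-difference grafts. The 7 T and NK cell markers had mean deviations of 1.26 and 0.91 in anti-IL6R, 0.77 and -1.21 in prednisolone, -1.37 and -1.49 in high-difference and 0.54 and 0.58 in low-difference grafts. Macrophage and monocyte markers (5 of 6 tested) were at 1.14 and 0.47 in anti-IL6R, 1.38 and -0.64 in prednisolone, -0.89 and -1.61 in high-difference and -0.29 and 0.44 in low-difference grafts. On the prednisolone arrays the T and NK cell and macrophage lists were thus high where the members were low. Of the neutrophil markers 2 of 4 were tested. Their mean deviations were 2.72 and -1.18 in prednisolone and 0.29 and -0.87 in high-difference grafts. That list was lowest on the first low-difference array (-1.23). The collecting duct list was at 0.31 and 0.07, -0.92 and 1.09, -0.51 and -1.14, and 0.85 and 0.25 in the same order of groups, and the endothelial list at 0.41 and 0.36, 0.20 and 0.03, -0.32 and -0.95, and -0.06 and 0.33. The part of these shifts in the members' differences was not tested. Of 5 hepatocyte markers, Apoa1, Ttr and Cyp7a1 were not tested, and neither of the other 2 was well above background on all 8 arrays.

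**Figure D5:**
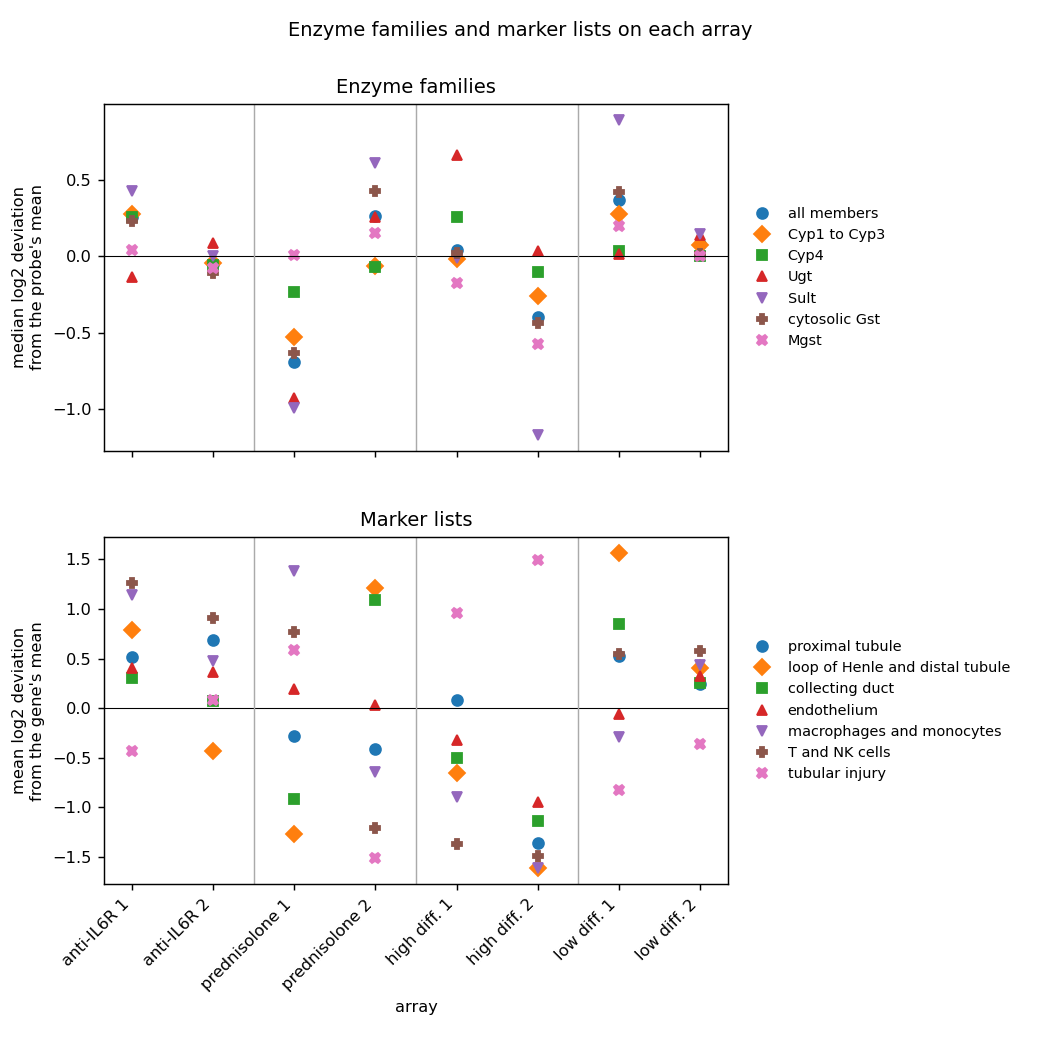
Median log2 deviation of each enzyme family from its probes' own means (top) and mean log2 deviation of marker lists (bottom) on each array, for anti-IL6R, prednisolone, high-difference and low-difference grafts from left to right. The Sult family is lowest on the second high-difference array (-1.17), where all marker lists shown except tubular injury are also lowest (proximal tubule -1.35).

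Members that hardly varied should be set beside these. Cyp2u1, a long-chain fatty acid hydroxylase, ranged over 0.29 log2 units across all 8 arrays, from -3.26 to -2.96. Cyp4f6 ranged over 0.40, from 3.21 to 3.61, and Cyp4a3 over 0.62, from 7.05 to 7.67. At the edge of the rule, Ugt1a9-ps was well above background only on the 2 anti-IL6R arrays and Cyp2b12 on 3 arrays, whereas Cyp1a1, a marker of aryl hydrocarbon receptor activity, was so on 3 arrays of 3 different groups and was no member. Of the other 41 probes named by the rule that were no members, 34 were well above background on no array. Genes with several probes numbered 14, and in high-difference against low-difference grafts the probes of 3 of them, Cyp1b1, Cyp2j3 and Ugt2b15, differed in sign.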

How the data were processed

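Total RNA (1 µg) from each of 8 grafts was labelled with Cy3 and hybridised to a 1-colour Agilent rat array. The deposited files hold processed signal intensities with the background subtracted; per the file headers they were made with Feature Extraction, version 9.5.1.1, by Agilent. A deposited value table holds the authors' signal values, which apart from 1338 zeros over the 8 arrays equal the processed signal times 1 factor per array, and served as an alternative.

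Outlier spots were removed and spots of a probe averaged. The log2 intensity was taken minus the array's 75th percentile. Probes flagged on some array (765) or well above background on both arrays of no group (11561) were left out, which left 28686. All 8 arrays entered 1 fit with limma 3.58.1 in R 4.3.3 (lmFit, eBayes; 4 residual degrees of freedom), with Benjamini-Hochberg adjustment at 0.05, and the procedure was tested on simulated data. Between 64.5 and 74.0% of spots were well above background, and the 2 arrays a group limit the precision. Gene names come from accession, symbol or synonym matches to RefSeq, otherwise from the array files.

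Members and lists were chosen with earlier results of these data known. Of the lists, 1 gene is not reported here. Genes named are, per comparison, up to 6 each way with the smallest p among those without overlap, and a list of members followed throughout; others are named where a sentence singles them out, chosen after their values were seen. Alternatives covered background correction, scaling, filters, probe choice, variance prior, the arrays in the fit, the replicate block and each array left out. Figures were drawn with matplotlib 3.10.9 in Python 3.11.15.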

Additional observations from a re-analysis of the deposited data

Results flagged for a closer look

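There were 5 probes with names of these enzyme families, too dim to be members, that were well above background on some array at a level above both low-difference arrays. Cyp2a3 (A_44_P111865) reached -4.58 on the second prednisolone array, against at most -8.31 in low-difference grafts. Cyp2c37 (A_44_P475573) reached -5.85 on the second anti-IL6R array, against at most -7.70 in low-difference grafts, and Cyp2b2 (A_44_P311322) reached -5.78 on the same array, against at most -5.84. On the first high-difference array Cyp2d3 (A_44_P367513) reached -4.19, against at most -6.04 in low-difference grafts, and Gstm5 (A_44_P517296) reached -4.65, against at most -6.15. Cyp2d3 was also well above background on the first anti-IL6R array. None of these levels was shared by the other array of its group at a level well above background.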

How the results depend on the processing

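Under 18 alternatives, 67 pairs of a named probe and a comparison gave 1175 values, of which 3 changed sign and 4 newly passed the threshold. The 3 came from normexp background correction: Cyp2j3 (A_44_P242949) at -0.10 and Ugt1a9-ps at -0.16 in anti-IL6R minus prednisolone grafts, and Ugt1a9-ps at -0.21 in anti-IL6R minus low-difference grafts; the cause was not tested. Quantile normalization called 3 probes of the array in high minus low, 7 in anti-IL6R minus high, 2 in prednisolone minus high, 2 in anti-IL6R minus prednisolone and 4 in anti-IL6R minus low, and scaling to the median 1 in each of the first pair, none a member. Without a filter on dim probes the member median in high minus low was 0.09 and that of the Cyp1 to Cyp3 families 0.34. Leaving out 1 array at a time gave 0 to 53 called probes in high minus low, 0 to 175 in anti-IL6R minus high, 0 to 261 in prednisolone minus high, 0 to 153 in anti-IL6R minus prednisolone, 0 to 9 in anti-IL6R minus low and 0 to 182 in prednisolone minus low, with 0 to 1, 0 to 1 and 0 to 2 called members in the first 3. The member median then ran over -0.60 to -0.16, 0.03 to 0.54, -0.47 to 0.37, -0.24 to 0.78, -0.37 to -0.03 and -1.0 to 0.06 in the same order. Family medians and the members called without each array were added after seeing the data. With the replicate number as a block (replicate block) 0 members were called and the smallest adjusted p (limma) was 0.377 in high minus low. The deviations of same-numbered arrays were correlated between groups with r from -0.35 to 0.37. Whether the numbers mark a shared factor was not tested. Normexp moved the median of all probes to 0.14, -0.21 and -0.12 in the first 3 comparisons.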
